A study of Mus musculus with 10 samples.

Results

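The regions described here are small islands on a mouse CpG-island methylation microarray, meaning groups of only 1 or 2 neighbouring probes. An island in this sense is a group of probes, and its number of probes is not the measured length of a CpG island. Probes on the autosomes were joined into islands where their start positions lay at most 500 bp apart, and every island of 1 or 2 probes was taken, whatever its signal. This gave 1665 small islands, 11.0% of 15109 autosomal islands. Of these, 634 held 1 probe and 1031 held 2 probes, which makes 2696 probes in all, while the other 13444 autosomal islands held 83154 probes. The islands are named here by their position on the mouse build mm9, since the files used pair no probe with a gene, and whether an island lies in an exon, intron or UTR was not looked up.

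Methylated DNA was measured in left hemibrain of C57BL/6j mice, a common inbred strain. The mice were male, were 3 weeks old when they were put on 1 of 3 diets, and were fed it for 24 weeks. The diets were made equal in calories, per the labels. What set them apart was the n-3:n-6 ratio of their polyunsaturated fats. It was 7:1 in the diet enriched for n-3 (ERD, with 4 arrays). The balanced diet (BLD) had 1:1 and 3 arrays, and the standard laboratory diet (STD) had 1:6 and 3 arrays. The sample titles, those of ERD and BLD included, all end in the word CONTROL, and they do not say whether an identifier marks 1 animal. A p-value here therefore reflects only how these samples vary, which may be technical. A hemibrain holds many cell types, so a change in methylation and a change in the mixture of cells cannot be told apart. The 10 arrays lay on 5 slides of 2 arrays. BLD replicate 3 and STD replicate 1 shared slide 4 and every other slide held 1 diet, so that diet and slide can be compared separately on that slide alone.

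A CpG island is a stretch with an unusually high density of CpG dinucleotides, and many islands overlie promoters. In vertebrate genomes most CpG dinucleotides outside islands carry 5-methylcytosine, whereas islands at promoters are mostly unmethylated in normal tissue. In methylated DNA immunoprecipitation (MeDIP), an antibody against 5-methylcytosine pulls down sheared DNA, and both the methylation and the number of CpG dinucleotides in a fragment set how much of it is recovered. Here the immunoprecipitated DNA was labelled with Cy5 and the input DNA with Cy3 throughout, so that no array had the dyes exchanged. The level of an island is the log2 ratio of Cy5 over Cy3, relative to the median probe of the same array and averaged over the island's probes. A positive level therefore means more recovered DNA relative to input than at the median probe, and it is not a percentage of methylated molecules.

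Small islands lay above the array median, and larger islands lay below it except on BLD replicate 2. The small islands' median level was between 0.073 and 0.168 on the 4 ERD arrays, between 0.061 and 0.147 on the 3 BLD arrays and between 0.017 and 0.033 on the 3 STD arrays. The median over islands of 3 or more probes was between -0.070 and -0.048 on ERD arrays, between -0.057 and 0.012 on BLD arrays and between -0.055 and -0.032 on STD arrays. The levels of the 2 classes did not overlap within any diet. The difference of medians, small minus larger islands, averaged 0.126 ± 0.055 (SD, n = 10 arrays) and was positive on 10 of 10 arrays. An exact two-sided sign-flip permutation test over the 10 arrays gave p = 0.00195, the smallest p that this design allows, and 0.00326 after Benjamini-Hochberg adjustment over 5 such tests. This difference depended on how the signal was processed. When the background was modelled from the median pixel intensities (normexp, with an offset of 50) in place of the deposited processed signal, the difference was 0.017 with an adjusted p of 0.949. That alternative changes the signal, the background model and the offset together, and the part of each was not tested.

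The level went down step by step with the number of probes. Averaged over the diets, the median level was 0.148 in islands of 1 probe, 0.060 in islands of 2 probes and 0.041 in islands of 3 probes, the class just outside the limit of the definition. It was -0.016 in islands of 4 to 5 probes, -0.084 in islands of 6 to 10 probes and -0.089 in islands of over 10 probes. In the plot of level by number of probes each array goes down from 1 probe to over 10 probes, though not at every step.

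**Figure D1:**
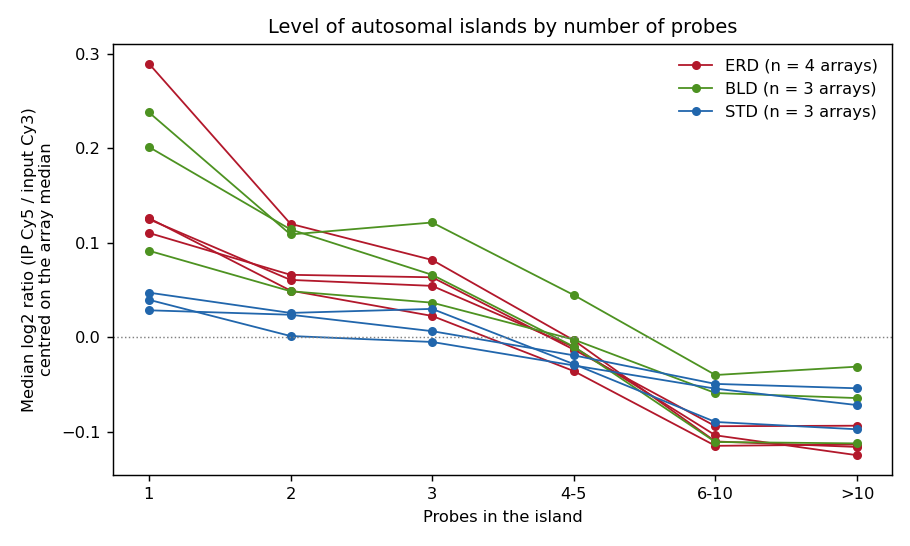
Median log2 ratio of Cy5 (immunoprecipitated DNA) over Cy3 (input DNA), relative to the array median, for autosomal islands grouped by their number of probes, with 1 line per array coloured by diet (4 ERD, 3 BLD and 3 STD arrays). Islands of 1 probe lie highest and islands of 6 or more probes lie below 0 on all 10 arrays, and the ERD and BLD lines start higher than the STD lines at 1 probe.

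Within the small islands, those of 2 probes had the lower level. Their median was between 0.049 and 0.120 on ERD arrays, between 0.049 and 0.114 on BLD arrays and between 0.0015 and 0.026 on STD arrays. The median of 1-probe islands was between 0.110 and 0.290 on ERD arrays, between 0.092 and 0.238 on BLD arrays and between 0.029 and 0.047 on STD arrays. The difference, 2 probes minus 1 probe, averaged -0.068 ± 0.050 (SD, n = 10) and was negative on 10 of 10 arrays, with an exact sign-flip p of 0.00195 and an adjusted p of 0.00326. On the 3 STD arrays it was small, at -0.0047, -0.021 and -0.038. With the normexp background the mean difference was -0.021 and the adjusted p was 0.949. With only probes well above background on all 10 arrays, as flagged in the scanner files, it was -0.034 (adjusted p = 0.0163).

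The small islands held regions of both high and low level. Of 1649 small islands measured on all 10 arrays, 182 (11.0%) lay above the array median on every array, against 1099 of 13444 larger islands (8.17%). A further 114 (6.91%) lay below the median on every array, against 2185 larger islands (16.3%). These shares are descriptions, since an average over fewer probes varies more. The other 16 small islands each lacked 1 array, and their values rest on the remaining ones.

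The spread of single probes showed no difference past the threshold. Their interquartile range, small minus larger islands, differed by -0.0060 ± 0.046 (SD, n = 10 arrays), with 4 arrays above 0 and 6 below, and the exact sign-flip p was 0.668 (adjusted 0.835). The same held for the agreement of neighbouring probes. The median absolute difference between the 2 probes of an island, minus that between neighbouring probes of larger islands, was -0.00070 ± 0.027 (SD, n = 10), with an exact sign-flip p of 0.932. The start positions of these probe pairs were a median of 157 bp apart in 2-probe islands and 119 bp apart in larger islands. The correlation between the 2 probes across 2-probe islands averaged r = 0.18 over the arrays and ranged from 0.025 to 0.52, against an average of 0.19 and a range of 0.033 to 0.42 for neighbouring probes of larger islands. The highest value in both classes came from ERD replicate 2. These correlations are across regions that share a library, and neighbouring probes can also share base composition, so they carry no test.

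Probe length and brightness differed with island size. Probes of 45 nucleotides, the shortest on the array, made up 61.2% of the probes in 1-probe islands and 68.7% in all small islands, against 74.1% in larger islands. Probes of 60 nucleotides, the longest, made up 5.68% in small islands and 3.04% in larger islands. Long probes had the higher ratio in both classes. The median level over 60-nucleotide probes was 0.44 in small and 0.38 in larger islands, while over 45-nucleotide probes it was 0.021 in small and -0.080 in larger islands. With 45-nucleotide probes alone on both sides, an alternative chosen after seeing the data, the difference between small and larger islands was 0.129 (adjusted p = 0.00488 by the exact sign-flip test). With 60-nucleotide probes alone, 149 small islands were left and the difference was 0.046 (adjusted p = 0.322).

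Fewer spots of small islands were well above background. The share of spots well above background in both channels was 79.8% in 1-probe islands and 84.2% in all small islands, against 86.9% in larger islands. The mean log2 Cy3 signal, the input DNA, was 9.58 in 1-probe islands and 9.93 in all small islands. It was 10.02 in both 2-probe and larger islands. The mean log2 Cy5 signal was 9.64 in 1-probe and 9.996 in 2-probe islands, and 9.91 in all small and 9.89 in larger islands. With only probes well above background on all 10 arrays, 1154 small islands were left, and the difference between small and larger islands was 0.122 (adjusted p = 0.00488). Beyond this filter, the part of brightness in the level was not tested.

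Distance to the next island separated the small islands further. Another island lay within 2000 bp of 699 small islands (42.0%), called near here, and of none of the other 966, called isolated. Near small islands had a median level between 0.011 and 0.082 on ERD arrays, between 0.028 and 0.054 on BLD arrays and between -0.024 and -0.0079 on STD arrays. Isolated small islands had a median between 0.106 and 0.264 on ERD arrays, between 0.090 and 0.228 on BLD arrays and between 0.028 and 0.078 on STD arrays. The difference, near minus isolated, averaged -0.115 ± 0.052 (SD, n = 10) and was negative on 10 of 10 arrays (exact sign-flip p = 0.00195, adjusted p = 0.00326). It was -0.023 with the normexp background and still past the threshold (adjusted p = 0.00977). With 60-nucleotide probes alone it was -0.039 (adjusted p = 0.449).

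The number of probes and the distance both went with the level. Averaged over the diets, the median level was -0.0057 in near islands of 2 probes, 0.076 in near islands of 1 probe, 0.105 in isolated islands of 2 probes and 0.221 in isolated islands of 1 probe. Of these 4 classes, isolated 1-probe islands also had the most 60-nucleotide probes, 11.6%, and the fewest spots well above background, 78.4%. Their highest array median, 0.526, was that of ERD replicate 2, and the other 3 ERD arrays lay between 0.185 and 0.208. In finer steps, the median level was 0.016 for 617 small islands with a neighbour within 1000 bp and 0.073 for 82 islands whose nearest neighbour was 1 to 2 kb away. It was 0.165 for 108 islands at 2 to 5 kb, 0.163 for 306 islands at 5 to 20 kb, 0.143 for 386 islands at 20 to 100 kb and 0.110 for 166 islands beyond 100 kb. Averaged over the diets, the level was thus higher past 2 kb, and went no higher at longer distances. From 2 to 5 kb to 5 to 20 kb, the mean of the array medians went from 0.206 to 0.177 in ERD and from 0.214 to 0.189 in BLD. In STD it went up, from 0.061 to 0.078.

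**Figure D2:**
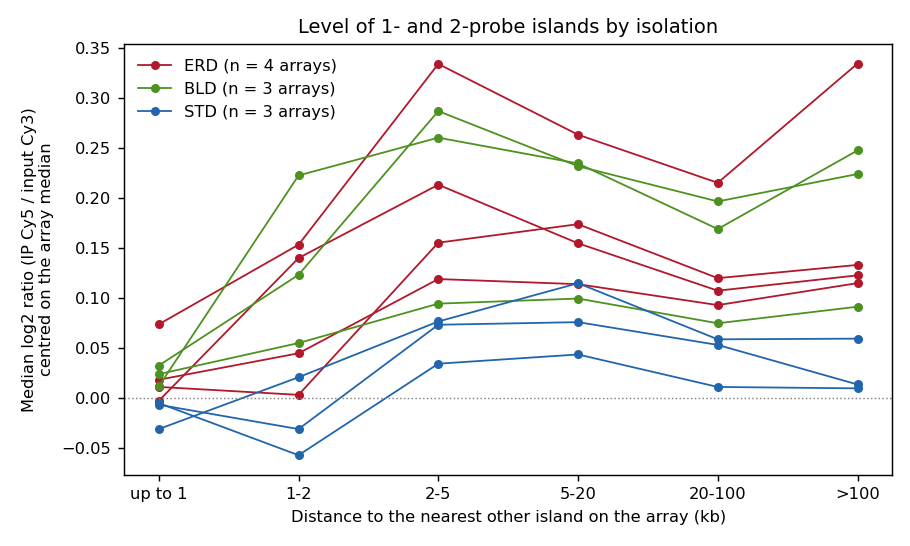
Median log2 ratio of Cy5 over Cy3, relative to the array median, for small islands grouped by the distance to the nearest other island on the array in kb, with 1 line per array coloured by diet (4 ERD, 3 BLD and 3 STD arrays). On all 10 arrays the islands with a neighbour within 1 kb lie below those with a nearest neighbour at 2 to 5 kb, and the highest point beyond 100 kb, 0.335, is ERD replicate 2.

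Near small islands lay slightly above their neighbours. The nearest island was itself small for 329 of the 699 and held 3 or more probes for 370. The median difference of a near island from its neighbour was between 0.023 and 0.089 and positive on 10 of 10 arrays. Across the 699 near islands, the level of an island and that of its neighbour correlated weakly on each array. The r was between 0.0026 and 0.275 with a mean of 0.128, given as a description. Small islands that are each other's nearest enter both measures from either side, so the 699 are not all separate pairs. The limit of 500 bp that defines an island also cuts through this range of distances. The 55 small islands with probe starts over 400 and up to 500 bp apart, just inside the limit, had a median level of 0.135. The 314 with a probe start of another island over 500 and up to 600 bp away, just outside it, had 0.015. Joining probes up to 1000 bp apart left 1095 small islands and a difference from larger islands of 0.173, while joining them only up to 250 bp gave 6417 small islands and a difference of 0.067, both past the threshold.

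Small islands lay above larger ones on 19 of 19 autosomes. The difference of median levels ran from 0.036 on chromosome 19, where small islands had a median of -0.022, to 0.252 on chromosome 18, where they had a median of 0.203. The share of islands that were small was lowest on chromosome 16, at 7.57%, and highest on chromosome 12, at 13.7%. The 36 islands of 1 or 2 probes on the X chromosome, which are outside the autosomal set, had a median level of 0.079.

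The 4 named 2-probe islands with the highest level, among the 366 with every spot well above background on all arrays, were positive on all 10 arrays but varied among arrays of 1 diet. The island at chr1:173609897-173610105 had levels of 0.66, 1.63, 1.00 and 1.43 on ERD arrays, 1.18, 0.84 and 0.52 on BLD arrays, and 0.49, 1.55 and 0.32 on STD arrays. The island at chr5:31502796-31502966 had 0.68, 2.02, 0.55 and 1.23 on ERD arrays, 0.81, 0.89 and 0.53 on BLD arrays, and 0.59, 1.75 and 0.45 on STD arrays. In both islands ERD replicates 2 and 4 and STD replicate 2 read highest, and the diets overlapped. The islands at chr10:11211781-11212000 and chr12:111558035-111558226 showed the same 3 arrays at the top, with ERD replicate 2 at 1.46 and 1.60, ERD replicate 4 at 1.31 and 1.15, and STD replicate 2 at 1.88 and 1.35. Their lowest values were 0.25 and 0.48, on ERD replicates 1 and 3.

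The 4 with the lowest level were negative on all 10 arrays. The island at chr9:44127791-44127917 had levels of -1.17, -1.10, -1.46 and -1.05 on ERD arrays, -0.77, -0.91 and -0.72 on BLD arrays, and -0.80, -0.61 and -0.28 on STD arrays. Every ERD array lay below every BLD and STD array, and its ERD minus STD difference was -0.63 ± 0.14 (SE), with an adjusted p of 0.169 in limma. The island at chr11:98656131-98656265 averaged -1.15 ± 0.26 on ERD arrays (SD, n = 4), -0.46 ± 0.22 on BLD arrays and -0.75 ± 0.41 on STD arrays (SD, n = 3 each). The island at chr5:24728813-24729006 averaged -0.74 ± 0.31 on ERD arrays, -0.90 ± 0.25 on BLD arrays and -0.60 ± 0.079 on STD arrays. The fourth, at chr18:35931718-35931903, averaged -0.50 ± 0.21 on ERD arrays, -0.67 ± 0.24 on BLD arrays and -0.87 ± 0.35 on STD arrays. Of the 4, 3 lay within 1000 bp of another island, at 564, 733 and 708 bp, and the one at chr5:24728813-24729006 was isolated.

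The gap between small and larger islands was wider on ERD and BLD arrays than on STD arrays, by differences that did not pass the adjusted test. The difference of medians was 0.132, 0.218, 0.143 and 0.137 on the ERD arrays, 0.204, 0.133 and 0.090 on the BLD arrays, and 0.058, 0.089 and 0.059 on the STD arrays. No ERD or BLD array overlapped the STD arrays, and ERD and BLD overlapped each other. The means were 0.158 ± 0.040 in ERD (SD, n = 4), 0.142 ± 0.058 in BLD and 0.069 ± 0.017 in STD (SD, n = 3 each). An exact two-sided permutation test gave p = 0.0286 for ERD against STD, the smallest p that 4 arrays against 3 allow, and 0.0857 after adjustment over the 3 pairs of diets. The exact test gave p = 0.1 for BLD against STD, the smallest that 3 against 3 allow (adjusted 0.15), and p = 0.743 for ERD against BLD (adjusted 0.743).

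On the slide that held both diets, the difference was 0.090 for BLD replicate 3 and 0.058 for STD replicate 1, a gap of 0.032, against 0.074 between the means of all BLD and STD arrays. The order of the diets was turned round with the normexp background, where ERD minus STD was -0.044, BLD minus STD was -0.025 and ERD minus BLD was -0.020. The whole spread of small islands was wider in the same diets. Their interquartile range averaged 0.624 ± 0.120 on ERD arrays (SD, n = 4), 0.566 ± 0.199 on BLD arrays and 0.401 ± 0.066 on STD arrays (SD, n = 3 each), and that of larger islands 0.404 ± 0.043 on ERD arrays, 0.365 ± 0.123 on BLD arrays and 0.267 ± 0.042 on STD arrays. The share of small-island spots well above background was 85.8% ± 6.1 on ERD arrays, 87.6% ± 0.62 on BLD arrays and 78.7% ± 6.4 on STD arrays. With all arrays scaled to one spread, the gap between small and larger islands was 0.045 wider in ERD than in STD and 0.050 wider in BLD than in STD. With only probes well above background on all arrays, these values were 0.094 and 0.060. None of these 4 passed the adjusted exact test. Joining probes only up to 250 bp apart gave 0.042 and 0.021.

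**Figure D3:**
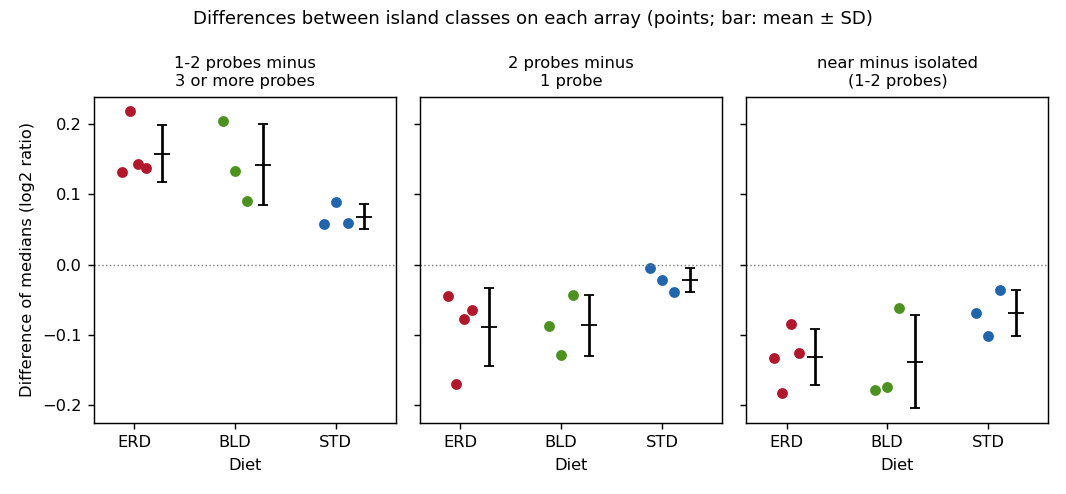
Differences between island classes on each array, as log2 ratios: small minus larger islands (left), 2-probe minus 1-probe islands (middle) and near minus isolated small islands (right). Points are arrays (4 ERD, 3 BLD, 3 STD) and the bars give the mean ± SD of each diet. The first difference is above 0 and the other 2 below 0 on all 10 arrays, and in the first the STD arrays (0.058 to 0.089) lie under all ERD and BLD arrays.

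Island by island, no small island passed an adjusted p of 0.05 between any of the diets. Limma was fitted to all 15538 islands of the array, and the share called over all of them was 0% in each of ERD minus STD, BLD minus STD, ERD minus BLD and the trend over the n-3:n-6 ratio. The lowest adjusted p among small islands was 0.0622 for ERD minus STD, 0.451 for BLD minus STD, 0.398 for ERD minus BLD and 0.0518 for the trend. At an unadjusted p under 0.05, 330 small islands (19.8%) differed between ERD and STD, against 15.3% of all islands. Of these, 235 were higher and 95 lower in ERD, against backgrounds of 7.88% and 7.46%. After normexp correction 268 small islands (16.1%) lay under that p, against 8.92% of all islands, and the split was 114 higher and 154 lower. Small islands varied more within a diet, with a median SD of 0.273 against 0.158 in larger islands. Limma draws the variances of all islands towards a common value, which can lower p where the variance is high. Shares under an unadjusted p, here and below, are therefore not on equal terms between small and all islands. The part of this in the excess was not tested.

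Between BLD and STD, 298 small islands (17.9%) lay under an unadjusted p of 0.05, 220 of them higher and 78 lower in BLD, against 10.9% of all islands, 7.28% higher and 3.66% lower. The normexp background gave 118 (7.09%), against 3.78% of all islands, with 46 higher and 72 lower. With only probes well above background on all arrays there were 130 (11.3%), against 10.05% of all islands, with 64 higher and 66 lower. Without BLD replicate 3 there were 430 (25.8%), against 18.4% of all islands, with 299 higher and 131 lower. Between ERD and BLD, 271 (16.3%) lay under that p, 135 higher and 136 lower in ERD, against 10.3% of all islands, 3.7% higher and 6.56% lower. The normexp background gave 7 (0.42%, with 0.412% over all islands), all higher in ERD. The even split also depended on the arrays and probes used. With only probes well above background on all arrays the split was 143 higher and 62 lower (17.8% in all, with 11.6% over all islands). Without ERD replicate 2 it was 155 higher and 234 lower (23.4%, with 12.6%). The trend had 314 (18.9%), 215 with a positive and 99 with a negative slope towards ERD, against 14.7% of all islands, 7.24% positive and 7.5% negative. The normexp background gave 251 (15.1%) for the trend, against 9.18% of all islands, 124 positive and 127 negative. ERD minus STD and BLD minus STD share the STD arrays.

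The total counts of islands whose arrays did not overlap between diets lay near the background. Their split by direction leaned more to higher values in the first-named diet than over all islands, which was not tested. For ERD against STD they were 250 of 1659 small islands (15.1%, with 16.1% over all islands), 172 higher and 78 lower in ERD, with backgrounds of 7.59% and 8.53%. For BLD against STD they were 328 of 1653 (19.8%, with 17.7% over all islands), 245 higher and 83 lower in BLD, with backgrounds of 11.5% and 6.14%. For ERD against BLD they were 183 of 1651 (11.1%, with 10.2% over all islands), 98 higher and 85 lower in ERD, with backgrounds of 3.62% and 6.62%. The median difference of small islands was 0.098 for ERD minus STD, against 0.011 over all islands. It was 0.098 for BLD minus STD, against 0.034 over all islands, and 0.0018 for ERD minus BLD, against -0.024. The median of small islands after normexp correction was 0.0082 for ERD minus STD, below the 0.054 over all islands, and -0.053 for BLD minus STD, against -0.015. With only probes well above background on all arrays it was 0.077 for ERD minus STD, against -0.019, and -0.014 for BLD minus STD, against -0.051. On the slide with both diets, BLD replicate 3 minus STD replicate 1 had a median of 0.052 over small islands and 0.019 over larger ones. Near small islands had a median ERD minus STD difference of 0.066, and 117 of 699 (16.7%) lay under the unadjusted p, while isolated ones had 0.124 and 213 of 966 (22.0%). The difference between these 2 shares was not tested.

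**Figure D4:**
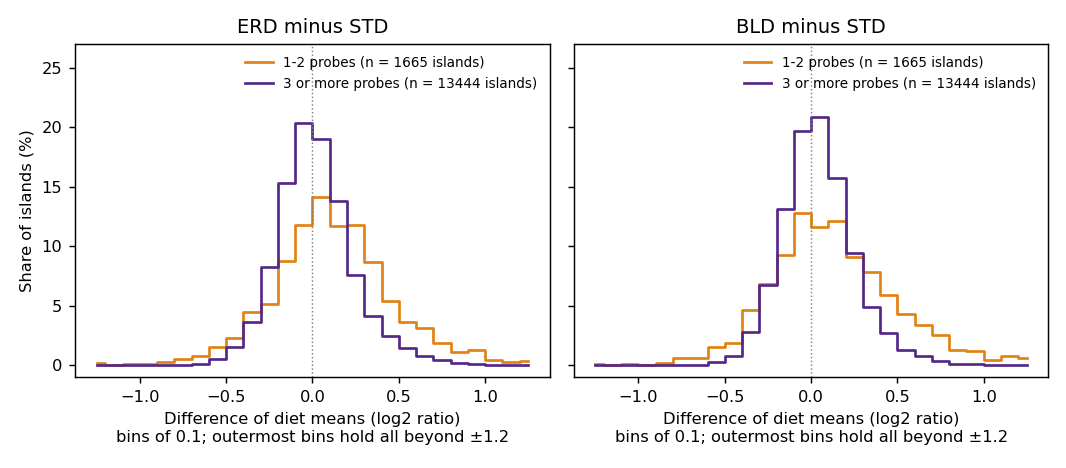
Share of islands by difference of diet means (log2 ratio, bins of 0.1, the outermost bins holding all values beyond), for ERD minus STD (left) and BLD minus STD (right), in 1665 small islands and 13444 larger islands. The distribution of small islands is broader and reaches further to the right, with medians of 0.098 in both panels.

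At the small islands with the lowest p between ERD and STD, the mean of BLD lay between those of ERD and STD. They were picked for their ERD minus STD difference, and that choice favours a middle place for BLD. The order is therefore a description, and their slopes share the ERD and STD arrays with that difference. The 1-probe island at chr12:56181387-56181431, with its nearest neighbour 43939 bp away, had levels of -0.86, -0.71, -1.25 and -0.75 on ERD arrays, -0.70, -0.46 and -0.50 on BLD arrays, and 0.22, 0.058 and -0.014 on STD arrays. All ERD and BLD arrays lay below all STD arrays. The ERD minus STD difference was -0.98 ± 0.14 (SE; limma adjusted p = 0.0622) and the BLD minus STD difference was -0.64 ± 0.14 (adjusted p = 0.451). On the shared slide, BLD replicate 3 minus STD replicate 1 was -0.73. Its slope over the trend was -0.18 ± 0.026 per doubling of the ratio (adjusted p = 0.0518). With the normexp background the ERD minus STD difference was -0.13.

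The 1-probe island at chr2:156536251-156536299 had the opposite order. Its levels were 0.92, 0.62, 0.91 and 0.68 on ERD arrays, 0.25, 0.33 and 0.19 on BLD arrays, and -0.0021, 0.15 and -0.050 on STD arrays, with no overlap between any 2 diets. The ERD minus STD difference was 0.75 ± 0.11 (SE; limma adjusted p = 0.0622), the ERD minus BLD difference was 0.53 ± 0.11 (adjusted p = 0.398), and the slope was 0.14 ± 0.020 (adjusted p = 0.0518). Its spot was well above background on 75% of the ERD arrays and on all others. With the normexp background the ERD minus STD difference was 0.19.

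The 2-probe island at chr7:152392248-152392372 had levels of 0.70, 0.72, 0.61 and 0.73 on ERD arrays, 0.25, 0.28 and 0.055 on BLD arrays, and 0.013, 0.15 and 0.011 on STD arrays. ERD arrays lay apart from both other diets, and BLD and STD arrays overlapped. The ERD minus STD difference was 0.63 ± 0.091 (SE; limma adjusted p = 0.0622), or 0.31 with the normexp background. These 3 islands at chromosomes 12, 2 and 7 passed the threshold between ERD and STD when limma weighted the arrays by their quality, with adjusted p-values of 0.0379, 0.0379 and 0.0421. Those at chromosomes 2 and 7 passed it between these diets under no other alternative. With the normexp background the limma adjusted p-values of the 3 were 0.499, 0.569 and 0.498. The share of all islands called with array weights is not given, so these calls cannot be read as particular to small islands.

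Of the other 7 islands named for ERD minus STD, 3 were higher and 4 lower in ERD, and all had adjusted p-values of 0.168 or 0.169 in limma. Those with higher values in ERD were at chr12:84962112-84962165, chr8:113618170-113618214 and chr19:36132232-36132276. The first averaged 1.26 ± 0.35 on ERD arrays (SD, n = 4), 0.68 ± 0.24 on BLD arrays and 0.24 ± 0.25 on STD arrays (SD, n = 3 each). Its spot was well above background on 50% of the ERD arrays and 66.7% of the STD arrays, and with the normexp background its difference was -0.28, the opposite direction. The second averaged 0.62 ± 0.13 on ERD arrays, 0.24 ± 0.096 on BLD arrays and 0.12 ± 0.037 on STD arrays. The third, 519 bp from another island, averaged 0.37 ± 0.32 on ERD arrays, -0.48 ± 0.24 on BLD arrays and -0.54 ± 0.20 on STD arrays, so that BLD was close to STD. At the second island the ERD minus STD difference was 0.51, or 0.30 with the normexp background. At the third it was 0.91, or 1.90 with the normexp background, a larger difference.

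Those with lower values in ERD were at chr7:34918364-34918538, chr18:35930966-35931010, chr10:33670738-33671038 and chr1:52556860-52556904. The 2-probe island on chromosome 7 averaged -0.71 ± 0.14 on ERD arrays (SD, n = 4), -0.38 ± 0.30 on BLD arrays and 0.021 ± 0.067 on STD arrays (SD, n = 3 each), and its difference was 0.088 with the normexp background, the opposite direction. The island on chromosome 18 averaged -0.70 ± 0.18 on ERD arrays, -0.51 ± 0.18 on BLD arrays and -0.043 ± 0.094 on STD arrays. It lies 708 bp from the 2-probe island at chr18:35931718-35931903 described above, which had its least negative mean on ERD arrays. The 2 neighbours thus had their diet means in opposite order. The 2-probe island on chromosome 10 averaged -0.594 ± 0.205 on ERD arrays, -0.110 ± 0.201 on BLD arrays and 0.072 ± 0.096 on STD arrays, with all ERD arrays below all STD arrays. The island on chromosome 1 had levels of -1.07, -0.33, -1.76 and -1.06 on ERD arrays, 0.16, -0.0047 and -0.13 on BLD arrays, and -0.076, 0.32 and 0.19 on STD arrays, so that ERD alone stood apart, with its spot well above background on 50% of the ERD arrays. These last 3 islands had smaller ERD minus STD differences with the normexp background, at -0.062 on chromosome 18, -0.090 on chromosome 10 and -0.15 on chromosome 1.

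**Figure D5:**
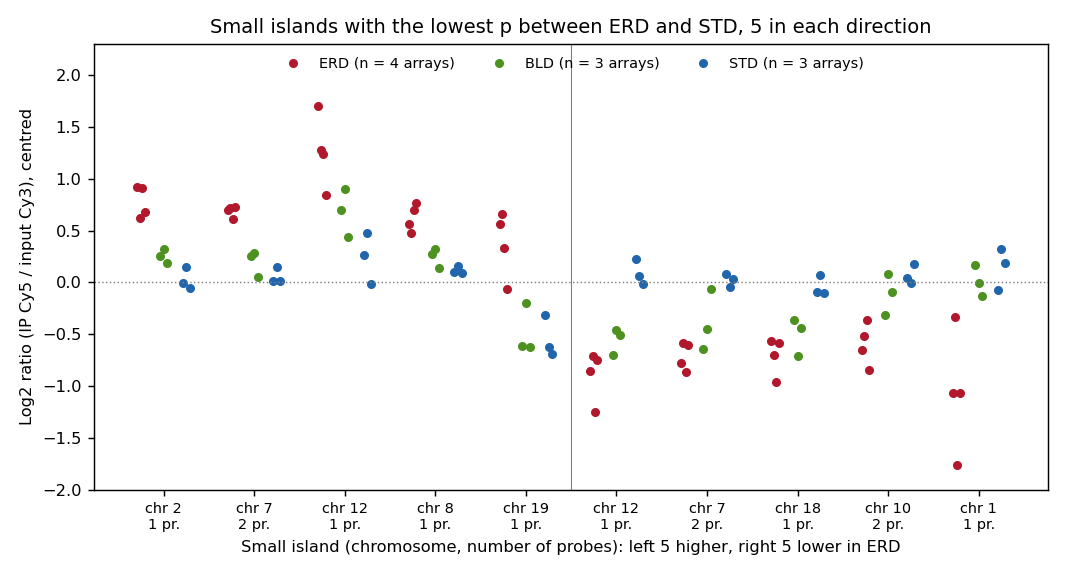
Levels (log2 ratio of Cy5 over Cy3, relative to the array median) of the small islands with the lowest p between ERD and STD in each direction, 5 higher and 5 lower in ERD, among those with 1 direction whichever array was left out, on every array, with points for 4 ERD, 3 BLD and 3 STD arrays side by side in each island. The 5 islands on the left have higher and the 5 on the right lower values in ERD, and in 1 of them, on chromosome 19, the BLD and STD arrays lie together below 0.

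Between BLD and STD the 10 named islands had adjusted p-values of 0.451 in limma. The 5 with higher values in BLD all held 2 probes. The one at chr2:25147621-25147982 had levels of 0.55, 0.48 and 0.42 on BLD arrays and 0.034, -0.11 and -0.30 on STD arrays, a difference of 0.61 ± 0.11 (SE). Its ERD arrays, at -0.063, -0.0039, 0.12 and -0.015, overlapped with STD. Of its spots, 33.3% were well above background on STD arrays, and with the normexp background the difference was -0.30. The one at chr13:21845690-21845995 had levels of 1.14, 1.39 and 0.46 on BLD arrays and -0.10, 0.044 and -0.011 on STD arrays, and its ERD arrays read 1.15, 1.10, 0.77 and 0.75. Both ERD and BLD lay above STD there, with 25% of its spots well above background on ERD arrays, and its BLD minus STD difference was -0.061 with the normexp background.

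The 3 others with higher values in BLD were at chr6:64992471-64992713, chr5:109987699-109987969 and chr5:71487201-71487443, with BLD minus STD differences of 1.16, 0.71 and 0.79. In these 3 the differences also turned negative with the normexp background, and 66.7%, 16.7% and 33.3% of their spots were well above background on STD arrays. Of the 5 with lower values in BLD, the chromosome 12 island at 56181387 is described above. The 2-probe island at chr15:57972958-57973255 had levels of -0.80, -0.80 and -0.27 on BLD arrays and 0.077, -0.035 and 0.083 on STD arrays, with ERD arrays at -0.026, 0.058, 0.12 and -0.15. BLD alone stood apart. The difference was -0.67 ± 0.14 (SE), or 0.043 with the normexp background. The other 3, at chr1:94076144-94076277, chr2:33286388-33286519 and chr1:159341902-159342032, had differences of -0.71, -0.56 and -0.47, and the first of these was 0.017 with the normexp background.

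Between ERD and BLD the 10 named islands had adjusted p-values of 0.398 in limma. The 1-probe island at chr13:65358717-65358761 had levels of 0.83, 0.78, 1.33 and 1.32 on ERD arrays and 0.17, 0.10 and 0.083 on BLD arrays, a difference of 0.95 ± 0.15 (SE). Its STD arrays, at 0.42, 0.37 and 0.077, lay far nearer to BLD. The 2-probe island at chr11:6447001-6447310 had 0.28, 0.50, 0.20 and 0.24 on ERD arrays and -0.54, -0.34 and -0.16 on BLD arrays, with STD at -0.045, 0.094 and 0.25, above all BLD arrays and overlapping with ERD. The 1-probe island at chr4:42929796-42929840 differed by 0.83 ± 0.17 (SE), and the islands at chr7:152392248 and chr2:156536251 are described above. The ERD minus BLD differences at the islands on chromosomes 13, 11 and 4 were 0.32, 0.25 and 0.22 with the normexp background.

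Among those lower in ERD than in BLD, the 1-probe island at chr2:151319923-151319967 had -1.45, -1.10, -1.28 and -1.62 on ERD arrays and -0.57, -0.48 and -0.66 on BLD arrays, a difference of -0.79 ± 0.16 (SE). Its STD arrays read -1.60, -1.14 and -0.99, so that BLD alone stood apart there too. The island at chr4:12067383-12067427 averaged -0.50 ± 0.086 on ERD arrays (SD, n = 4) and 0.15 ± 0.14 on BLD arrays (SD, n = 3). At these 2 islands the differences were -0.27 and -0.053 with the normexp background. The 2-probe islands at chr5:66089763-66089950, chr2:25147621-25147982 and chr19:5460534-5460753 had differences of -0.76, -0.47 and -0.60. They were 0.032, -0.028 and -0.046 with the normexp background, and the third was 0.042 when only probes well above background on all arrays were kept.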

How the data were processed

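MeDIP DNA (Cy5) and input DNA (Cy3) of 10 hemibrain samples were hybridised to 10 Agilent 2-colour CpG-island arrays. The scanner files are output of Agilent Feature Extraction, in version 10.7.3.1 per the file headers and 9.0 per the submitters' processing notes. The deposited processed intensity was background-subtracted and dye-normalized by a linear factor, per the file headers. The deposited log10 ratio of Cy5 over Cy3, and the same ratio in the series value table, served as an alternative, and the largest differences between the 2 tables were under 0.005 (log10). Flags for spots well above background and outlier spots were used as deposited.

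The log2 ratio of processed signals was computed per probe, outlier spots were dropped, each array was centred on its median over 88737 probes, and islands are means of probes (326 probes without a position were left out). Median intensities per array lay between 798 and 1162 in Cy3. The number of arrays limits the precision. Island classes were compared per array by exact sign-flip permutation tests and diets by exact permutation tests. Single islands were tested with limma 3.58.1 in R 4.3.3 over all 15538 islands with Benjamini-Hochberg adjustment, checked on simulated data.

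Named islands are, per pair of diets, the 5 higher and 5 lower with the lowest p among those with 1 direction in every fit without 1 array, 3 in each direction for the trend, and by level the 4 highest and 4 lowest 2-probe islands with all spots well above background. The islands, tests and alternatives were chosen with earlier results of these data known. The mm9 genome was not at hand, so no sequence is printed.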

Additional observations from a re-analysis of the deposited data

Results flagged for a closer look

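ERD replicate 2 stood apart from the other ERD arrays in 2 of the 39 measures checked in the 4 ERD arrays, where chance gives about 1 in 20. Its difference between small and larger islands was 0.218, and the other 3 ERD arrays lay between 0.132 and 0.143. Without it the mean over the remaining 9 arrays was 0.116 and the ERD minus STD difference was 0.069. Its median difference between the 2 probes of an island, relative to that of neighbouring probes in larger islands, was 0.0455, while on the other 3 ERD arrays it lay between -0.035 and -0.024. Both values are given with no explanation.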

How the results depend on the processing

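Small minus larger islands (positive), 2 probes minus 1 probe (negative) and near minus isolated (negative) kept direction under every alternative run. The exceptions in the call were as follows. With the normexp background, small minus larger islands was 0.017 and 2 probes minus 1 probe -0.021, neither past the threshold. With 60-nucleotide probes alone, small minus larger was 0.046 and near minus isolated -0.039, neither past it. The cause was not tested. Values still past the threshold but changed by over 1.5 times were small minus larger islands, 0.067 with a gap of 250 bp and 0.077 against islands of 3 to 5 probes, 2 probes minus 1 probe, -0.034 with only probes well above background and -0.042 over single probes, and near minus isolated, -0.060 with a gap of 1000 bp and -0.023 with normexp. The differences between diets in that level turned sign with normexp, to -0.044 (ERD minus STD), -0.025 (BLD minus STD) and -0.020 (ERD minus BLD). ERD minus BLD was also -0.015 with quantile scaling, -0.0047 with arrays scaled to one spread and -0.012 with 60-nucleotide probes. The 2 differences near 0 turned sign as well: the spread of single probes was 0.00143 with loess and 0.023 with 60-nucleotide probes, and the probe-pair difference was 0.000307 with normexp, 0.0074 with loess, 0.010 with a gap of 250 bp and 0.069 with 60-nucleotide probes.

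Leaving out 1 array at a time gave 0.116 to 0.134 for small minus larger, -0.017 to 0.0021 for the spread, -0.075 to -0.057 for 2 probes minus 1 probe, -0.0058 to 0.0031 for the probe pairs and -0.123 to -0.107 for near minus isolated. It gave 0.069 to 0.099 for ERD minus STD in the level, 0.043 to 0.100 for BLD minus STD, and -0.011 (without BLD replicate 3) to 0.046 (without BLD replicate 1) for ERD minus BLD, which was -0.0048 without ERD replicate 2.

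Calls of small islands at an adjusted p of 0.05 in limma stayed at 0 except here. ERD minus STD had 3 with quantile scaling, 3 with array weights and 1 with a robust trended prior. BLD minus STD had 2 with quantile scaling. The trend had 2 with a gap of 1000 bp, 2 with array weights, 1 with the robust prior and 2 with the series value table, an alternative chosen after seeing the data. In every one of these for the trend, the chromosome 12 island at 56181387 was among the calls. Without 1 array, calls stayed at 0 except without BLD replicate 3, with 9 for BLD minus STD and 8 for ERD minus BLD. The 9 included chr13:21845690, and both sets held chr6:64992471 and chr15:57972958. Calls over all islands are not given for these alternatives, so none can be read as particular to small islands.

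Counts at an unadjusted p under 0.05 moved by over 1.5 times in these cases. For BLD minus STD there were 118 with normexp (7.09%, with 3.78% over all islands). With only probes well above background there were 130 (11.3%, with 10.05%). Without BLD replicate 1 there were 130 (7.81%, with 4.41%), and without BLD replicate 2 there were 164 (9.85%, with 5.32%). For ERD minus STD there were 217 with only probes well above background, 18.8% of the small islands left, with 16.5% over all islands. For ERD minus BLD there were 7 with normexp (0.42%, with 0.412% over all islands). With a gap of 1000 bp there were 168 (15.3%, with 10.1%). The trend had 205 without STD replicate 3 (12.3%, with 8.29%). A gap of 250 bp made 6417 islands small. Counts were then 1233 for ERD minus STD (19.2%, with 15.4% over all islands) and 981 for BLD minus STD (15.3%, with 10.9%). For ERD minus BLD there were 985 (15.3%, with 10.5%), and for the trend 1145 (17.8%, with 14.7%).

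Named islands reversed with normexp as follows. ERD minus STD was -0.28 at chr12:84962112 (trend -0.047) and 0.088 at chr7:34918364 (trend 0.013). BLD minus STD was -0.30 at chr2:25147621, -0.10 at chr6:64992471, -0.16 at chr5:109987699, -0.28 at chr5:71487201, -0.061 at chr13:21845690, 0.043 at chr15:57972958 and 0.017 at chr1:94076144. ERD minus BLD was 0.032 at chr5:66089763. With only probes well above background, ERD minus BLD at chr19:5460534 was 0.042. No paired analysis was possible because the labels give the arrays no replicate numbers. The correlation between arrays of 1 slide, fitted as a random block, was 0.146, and no call was made with it.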
